A study of Mus musculus with 45 samples.

Results

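Regulatory T cells (Treg) of visceral adipose tissue (VAT) were compared between male and female mice over all genes. The libraries were chosen by their labels: all reporter VAT Treg libraries without a Cre, 2 from male and 2 from female mice, 4 of the 45 libraries of the series. Both groups were C57BL/6 mice carrying the Foxp3RFP reporter, in which cells that express Foxp3 carry a red fluorescent protein, and RFP+ Treg were sorted from VAT at 25 weeks of age with 4 mice pooled per library. No agent, Cre or floxed allele is on the labels of either group. The whole-fat libraries of the series name epididymal fat as the male and periovarian fat as the female visceral depot, so sex and depot cannot be told apart. Each library is a pool, and p-values therefore measure the spread between pools and not between single mice. Other sorted T cells gave the estimate of spread: RFP- CD4 T cells of VAT (25 weeks, 4 mice a library) and spleen Treg (no age on the label, 3 mice a library) of both sexes of the same reporter line. Male Treg of VAT and spleen also entered that estimate, from Blimp1fl/flFoxp3cre mice, whose labels give a floxed Blimp1 and a Cre driven by Foxp3, and from Foxp3cre control mice (25 weeks).

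Treg are CD4 T cells that hold immune responses in check and depend on the transcription factor FOXP3. In visceral fat of mice they form a resident population known for the IL-33 receptor ST2 (encoded by Il1rl1), the lectin-like receptor KLRG1, the transcription factors PPARG and GATA3, and tissue factors such as amphiregulin, and they are known to restrain inflammation of the fat. IL-33 from stromal cells is known to expand them.

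Assigned reads came to 26060177 and 26411216 in the male and 26667263 and 25872221 in the female VAT Treg libraries. Levels are CPM, the reads of a gene as parts of those of its library, scaled between libraries by TMM, the trimmed mean of M-values, unless a sum is named. Foxp3 had 804 and 592 CPM in male VAT Treg, against 475 and 389 CPM in female VAT Treg (log2 fold change 0.69, SE 0.68, adjusted p = 1), and at most 4.53 CPM in any RFP- CD4 library of VAT before that scaling. The sorted cells thus carried the gene of their reporter in both sexes, and the libraries of the sexes did not overlap although the test was not passed. Xist, the RNA of the inactive X chromosome, was at 0.454 to 0.499 CPM in male VAT Treg, against 84.2 to 166.8 CPM in female VAT Treg without that scaling. In all other male T cell libraries, with and without a Cre, Xist was at 0 CPM. The source of the few Xist reads in male VAT Treg was not tested. Markers of the 13 lists of other cells, less the list of MHC class II genes, were summed. They came to 2365 and 6796 CPM in male VAT Treg, against 4192 and 7556 CPM in female VAT Treg, so that replicate 2 was the higher library in either sex. MHC class II genes alone came to 1042 and 3952 CPM in male VAT Treg, against 1605 and 3720 CPM in female VAT Treg. In such bulk libraries, fewer cells of a type and less RNA per cell cannot be told apart.

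Male and female VAT Treg differed in 280 of 17340 genes tested (1.61%), 125 higher (0.721%) and 155 lower (0.894%) in males, by the edgeR quasi-likelihood test at an adjusted p under 0.05. Those genes moved far: 250 changed by more than 1, 117 by more than 2 and 42 by more than 3 on the log2 scale, and the medians were 1.85 for genes that rose and -1.79 for genes that fell. In all 280, which the test of that same difference chose, the 2 male libraries lay on one side of the 2 female libraries, as they did in 6448 of the 17340 genes tested (37.2%), 2961 higher and 3487 lower in males. The median over all genes tested was -0.04, with 7467 above 0, 9044 below and 829 at 0. Leaving out 1 VAT Treg library left 94 genes called without female replicate 1, 107 without male replicate 1, 192 without male replicate 2 and 207 without female replicate 2. The call held without each library in turn for 71 genes, 40 higher and 31 lower in males, and all 280 kept their sign. Autosomes held 118 of the higher and 150 of the lower genes (1.66% of 16166). On the X chromosome 3 were higher and 4 lower (1.25% of 562), and of 7 genes known to escape X inactivation edgeR and DESeq2 called 0, with 3 at an unadjusted p under 0.05.

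**Figure D1:**
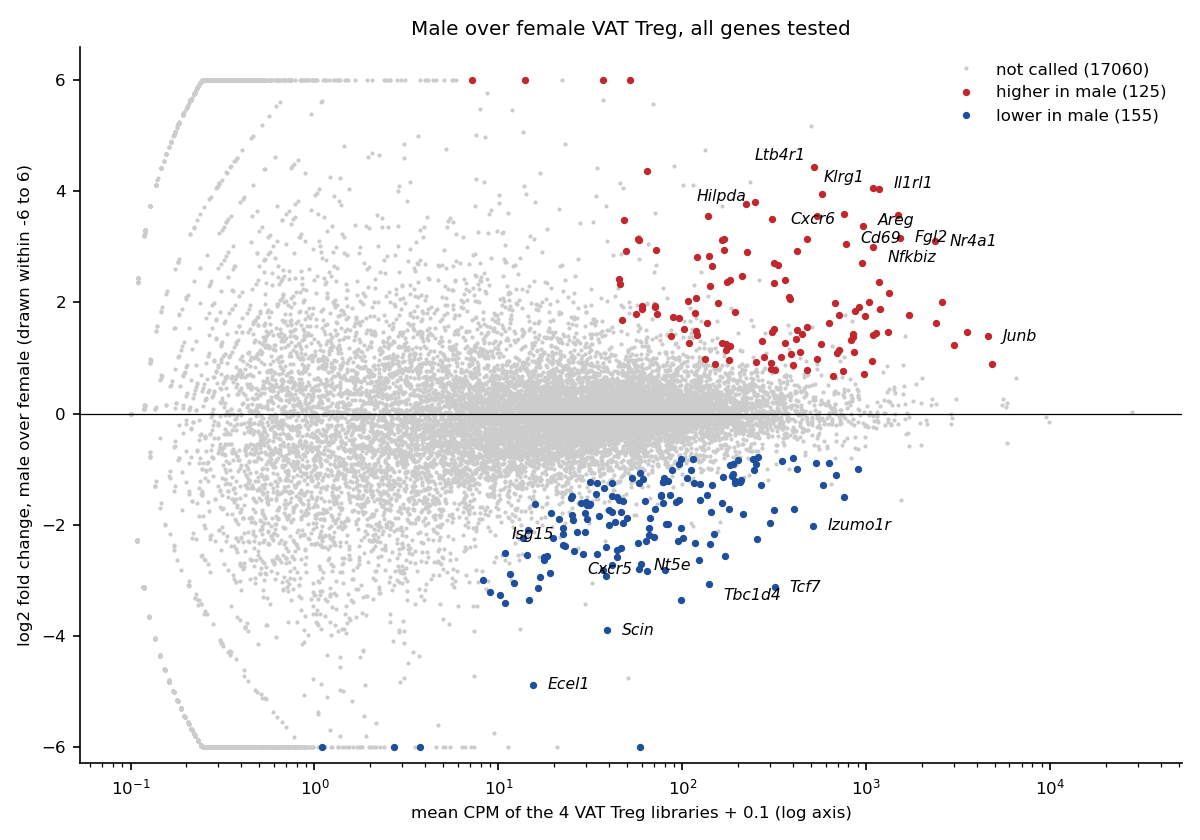
Log2 fold change of male over female VAT Treg (y axis) against mean CPM of the 4 libraries plus 0.1 (x axis, log scale), 1 point per gene tested. The 125 genes called higher in males are red, the 155 called lower are blue and the 17060 others are grey; values past 6 in size are drawn at 6.

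The genes known to mark Treg of visceral fat were far higher in males. Of 20 such genes 11 rose and none fell (55.0% called, against 1.61% of all genes), with a list median of 2.85 on the log2 scale, against -0.04 over all genes. This list and those below were chosen with earlier results of these data known, so their shares and medians describe and do not test. Il1rl1, which encodes ST2, had 2524 and 1874 CPM in male VAT Treg, against 117 and 149 CPM in female VAT Treg (log2 fold change 4.05, SE 0.27, adjusted p = 1.26e-07). Klrg1 had 2148 and 1966 CPM in male VAT Treg, against 118 and 129.6 CPM in female VAT Treg (log2 fold change 4.05, SE 0.45, adjusted p = 5.05e-05). For either gene both male libraries stood above both female libraries, and the spread within a sex was small beside the gap. Female VAT Treg still lay above the other reporter cells: Il1rl1 had 21.5 and 26.9 CPM in female RFP- CD4 T cells of VAT and 39.0 and 40.1 CPM in female spleen Treg. The single Foxp3cre VAT Treg library, from a male, held 1859.8 CPM of Il1rl1. Its source name says spleen, while its title and tissue say VAT. The male VAT Treg libraries of Blimp1fl/flFoxp3cre mice held 182.6 and 189.8 CPM of Il1rl1.

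Chemokine receptors and secreted factors of that list moved the same way. Cxcr6, the receptor of CXCL16, had 1502 and 1279 CPM in male VAT Treg, against 82.9 and 147 CPM in female VAT Treg (log2 fold change 3.60, SE 0.33, adjusted p = 7.37e-06). Ccr2, the receptor of the monocyte attractant CCL2, had 1946 and 1345 CPM in males, against 183 and 322 CPM in females (log2 fold change 2.71, SE 0.33, adjusted p = 0.000118). Fgl2, a secreted fibrinogen-like effector of Treg, had 2973 and 2531 CPM in males, against 262 and 351 CPM in females (log2 fold change 3.17, SE 0.28, adjusted p = 4.86e-06). In these 3 genes the lower male library lay well above the higher female one. Areg, the epidermal growth factor family ligand amphiregulin, had 2514 and 991 CPM in males, against 255 and 80.6 CPM in females (log2 fold change 3.38, SE 0.51, adjusted p = 0.000969), with a wider spread in either sex. Calls that held without each library in turn were those of Il1rl1, Klrg1, Cxcr6, Ccr2, Fgl2, Areg and Nr4a1, 7 of the 11. In RFP- CD4 T cells of VAT, Fgl2 had 155 and 174 CPM in males, against 37.4 and 47.4 CPM in females. Ccr2 had 335 and 467 CPM in males there, against 193 and 259 CPM in females. Cxcr6 had 390 and 435 CPM in males there, against 283 and 311 CPM in females, while Areg overlapped between the sexes. Of these genes only Cxcr6 and Areg were called in the difference from VAT CD4 T cells.

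The calls of the other called markers did not hold without each library in turn. Il10, the anti-inflammatory cytokine, had 972 and 1172 CPM in male VAT Treg, against 82.1 and 56.6 CPM in female VAT Treg (log2 fold change 3.95, SE 0.95, adjusted p = 0.0413), and both male libraries stood above both female ones. Gata3 had 761 and 479.8 CPM in males, against 145 and 153 CPM in females (log2 fold change 2.06, SE 0.40, adjusted p = 0.00959). The IL-9 receptor gene Il9r rose by 2.92 and the eotaxin receptor gene Ccr3 by 3.15 on the log2 scale (adjusted p = 0.0126 and 0.0315). The call was lost without female replicate 1, female replicate 2 or male replicate 1 for Gata3 and Ccr3 (adjusted p up to 0.435). Il9r lost it without female replicate 1 or male replicate 1 (adjusted p up to 0.212). Il10 lost it without any one of the 4 libraries (adjusted p up to 0.375). Pparg, the nuclear receptor most tied to Treg of visceral fat, had 91.2 and 110.4 CPM in males, against 6.46 and 22.8 CPM in females. Its libraries did not overlap, yet the test was not passed (log2 fold change 2.79, SE 0.95, adjusted p = 0.265). Among the transcription factors that act upstream in this population, Irf4 (0.86, adjusted p = 0.493), Batf (-0.84, adjusted p = 0.249) and Rora (1.30, adjusted p = 0.635) were not called.

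**Figure D2:**
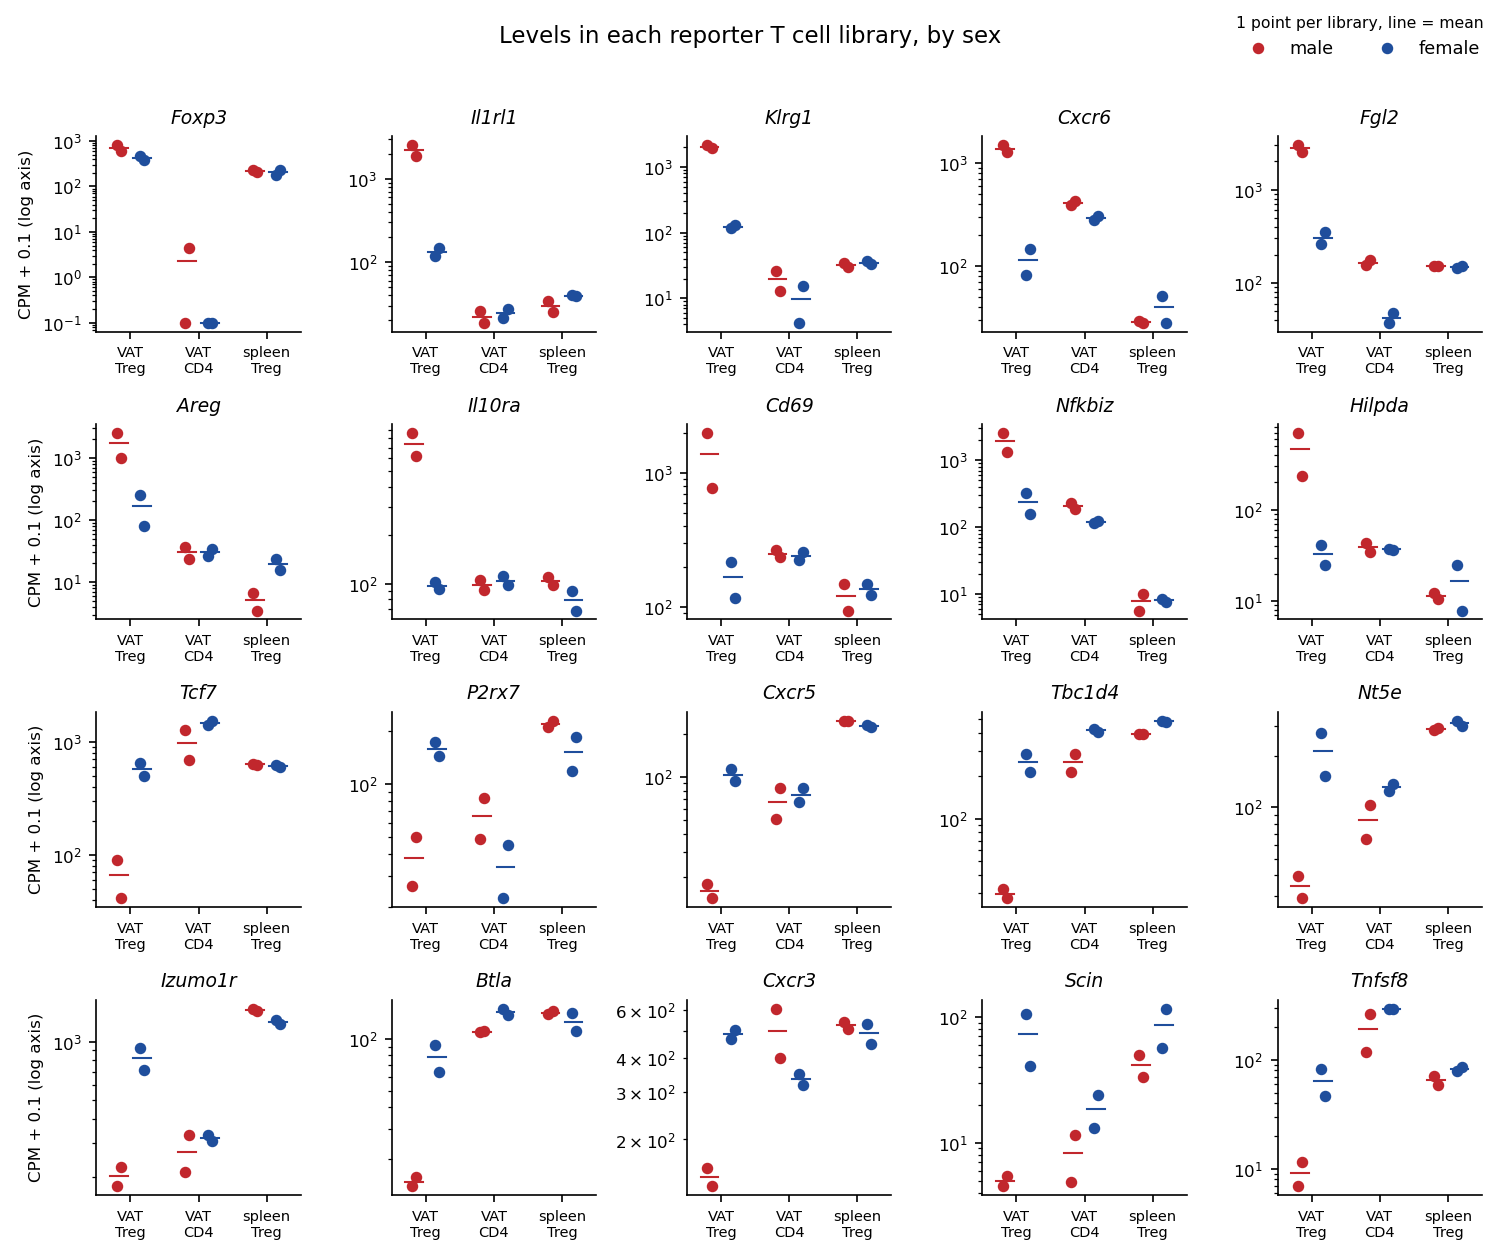
CPM plus 0.1 (y axis, log scale, TMM-scaled) of 20 genes in each reporter T cell library, with male libraries left of female ones in each cell group; points are libraries and lines group means (2 libraries each). In VAT Treg the 2 male libraries lie above both female libraries for Foxp3 and the 9 genes after it and below them for Tcf7 and the 9 after it.

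ILC2, group 2 innate lymphoid cells of fat, also carry ST2 and KLRG1, and most of their listed genes lay higher in males with these markers. A list of 7 ILC2 genes added up to 134 and 164 CPM in male VAT Treg, against 9.52 and 25.4 CPM in female VAT Treg. Its median was 1.96 on the log2 scale and 6 of 7 were above 0, against 7467 of 17340 among all genes. In 5 the sexes did not overlap, all higher in males, against 2961 of 17340 that did not overlap and were higher. EdgeR called 0 members (3 at an unadjusted p under 0.05, and 1 called by DESeq2), and none was at 0 in all 4 libraries. Values of these genes per library are given with no scaling between libraries. Calca, a neuropeptide gene, had 29.8 and 58.5 CPM in male VAT Treg, against 2.06 and 1.24 CPM in female VAT Treg, with 301 to 648 CPM in the 4 ILC2 libraries of VAT, which were sorted on ST2 and KLRG1 themselves. Nmur1, the neuromedin U receptor gene, had 54.6 and 74.1 CPM in males, against 2.21 and 4.41 CPM in females, with 28.0 to 65.0 CPM in ILC2. These genes made up most of the sum in the male libraries but not in the female ones. Ptgir, a prostacyclin receptor gene, had 33.2 and 16.7 CPM in males, against 2.62 and 11.9 CPM in females, with 123 to 184 CPM in ILC2, and Htr1b, a serotonin receptor gene, had 11.1 and 6.17 CPM in males, against 0.075 and 0 CPM in females, with 0 to 1.13 CPM in ILC2. Alox5, the lipoxygenase of leukotriene synthesis, had 2.53 and 3.33 CPM in males, against 0.6 and 1.78 CPM in females, with 265 to 452 CPM in ILC2. All 5 of these genes were higher in both male libraries than in either female one. Arg1, the arginase of ILC2, had 1.46 and 4.58 CPM in male VAT Treg, against 1.95 and 4.75 CPM in female VAT Treg, while ILC2 had 1129.6 to 2512 CPM. Il17rb, an IL-25 receptor chain gene, was at 1.3 and 0.757 CPM in males, against 0 and 1.28 CPM in females, with 27.8 to 65.3 CPM in ILC2, and for it and Arg1 the sexes overlapped. The type 2 cytokine genes Il5 and Il13, outside that list, were also higher in both male libraries. Il5 had 24.1 and 26.7 CPM in male VAT Treg, against 1.54 and 1.74 CPM in female VAT Treg, with 509 to 1512 CPM in ILC2. Il13 had 58.5 and 25.6 CPM in males, against 1.27 and 0.0387 CPM in females, with 10.5 to 46.3 CPM in ILC2. Neither was called by edgeR (adjusted p = 0.425 and 0.582). ILC2 libraries held 1113 to 2191 CPM of Il1rl1. Macrophage and monocyte markers added up to 546 and 2573 CPM in male VAT Treg, against 162 and 1329.9 CPM in female VAT Treg. Fibroblast markers came to 507 and 1708 CPM in male VAT Treg, against 185 and 2135 CPM in female VAT Treg. Mast cell, basophil and eosinophil markers came to 76.5 and 25.0 CPM in male VAT Treg, against 3 and 14.1 CPM in female VAT Treg, with Tpsab1, Fcer1a and Epx at 0 in all 4. Their list median was -0.165 on the log2 scale, with 4 of the 10 members tested above 0 and 5 below. The part of such cells in the marker genes was not tested. Without the 3 reporter libraries of fat highest in markers of other cells, which left 1 VAT Treg library of each sex, 12 of the 20 marker genes were called higher and 1 lower, 2 of 12 macrophage and monocyte markers higher, 2 of 10 B cell markers lower and 0 of 7 ILC2 genes by edgeR.

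Genes shared by Treg of all tissues moved in both directions. Among 20 of them 2 rose and 3 fell (25.0% called, against 1.61% of all genes). Nt5e, which encodes the ecto-enzyme CD73 that makes adenosine, had 39.3 and 29.1 CPM in male VAT Treg, against 272 and 153 CPM in female VAT Treg (log2 fold change -2.63, SE 0.28, adjusted p = 2.87e-05). Izumo1r, the folate receptor 4 of Treg, had 179.6 and 225 CPM in males, against 922 and 717 CPM in females (log2 fold change -2.02, SE 0.21, adjusted p = 2.14e-05). For both genes the male libraries lay below the female ones with no overlap. Il2ra, which encodes the high-affinity IL-2 receptor chain CD25, had 842 and 583 CPM in males, against 247 and 240.2 CPM in females (log2 fold change 1.55, SE 0.35, adjusted p = 0.0285). The checkpoint gene Ctla4 had 1815 and 1494 CPM in males, against 870.1 and 347 CPM in females (log2 fold change 1.44, SE 0.34, adjusted p = 0.0369). Itgae, the epithelial-binding integrin CD103, fell by 2.25 on the log2 scale (adjusted p = 0.0355). Leaving out 1 library ended the call without female replicate 1, female replicate 2 or male replicate 1 for Il2ra (adjusted p up to 0.293). Ctla4 lost it without female replicate 2, male replicate 1 or male replicate 2 (adjusted p up to 0.316). Itgae lost it without female replicate 1, male replicate 1 or male replicate 2 (adjusted p up to 0.595).

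Inhibitory receptors and their ligands split likewise, with 4 of 16 higher and 3 lower (43.8% called, against 1.61% of all genes). Btla, an inhibitory receptor for the TNF receptor family member HVEM, had 13.8 and 15.5 CPM in male VAT Treg, against 92.4 and 63.6 CPM in female VAT Treg (log2 fold change -2.41, SE 0.23, adjusted p = 8.36e-06). Lag3, an inhibitory receptor for MHC class II, fell by 2.27 (adjusted p = 0.0233) and Cd200, the ligand of an inhibitory receptor of myeloid cells, by 1.97 (adjusted p = 0.0171) on the log2 scale. Higher in males were Ctla4, the galectin genes Lgals1 (log2 fold change 1.43, SE 0.21, adjusted p = 0.000748) and Lgals3 (log2 fold change 3.14, SE 0.65, adjusted p = 0.0151), and Cd200r1, the receptor of CD200 (log2 fold change 2.95, SE 0.70, adjusted p = 0.0394). Lgals1 and Btla kept the call without each library in turn. The others lost it without female replicate 1 or male replicate 1 for Lag3 and Cd200 (adjusted p up to 0.371). Lgals3 lost it without female replicate 1 or male replicate 2 (adjusted p up to 0.328). Cd200r1 lost it without any one of the 4 libraries (adjusted p up to 0.395).

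Genes that T cells carry at rest, or for entry to lymph nodes and follicles, were low in males. Among 18 of them 5 fell and 1 rose (33.3% called, against 1.61% of all genes), with a list median of -1.16. Tcf7, the transcription factor TCF1 of naive and memory T cells, had 90.3 and 40.9 CPM in male VAT Treg, against 647 and 499 CPM in female VAT Treg (log2 fold change -3.13, SE 0.32, adjusted p = 1.89e-05). Cxcr5, which guides cells into B cell follicles, had 17.8 and 14.0 CPM in males, against 114 and 93.0 CPM in females (log2 fold change -2.71, SE 0.26, adjusted p = 8.36e-06). For both genes the male libraries lay far below the female ones, and in spleen Treg Tcf7 had 629 and 635 CPM in the male libraries and 602 and 628 CPM in the female ones. The chromatin organiser gene Satb1 (-1.89, adjusted p = 0.0389) and the kinase gene Txk (-2.52, adjusted p = 0.00605) also fell. Il7r, the receptor of the survival cytokine IL-7, had 474 and 457 CPM in males, against 160.2 and 162 CPM in females (log2 fold change 1.53, SE 0.32, adjusted p = 0.019). Tcf7 and Cxcr5 kept the call without each library, and it was lost without female replicate 1, male replicate 1 or male replicate 2 for Satb1 (adjusted p up to 0.734). Txk lost it without male replicate 1 (adjusted p up to 0.139). Il7r lost it without female replicate 1, female replicate 2 or male replicate 1 (adjusted p up to 0.231). B cell markers added up to 459 and 1178 CPM in male VAT Treg, against 3169 and 1912 CPM in female VAT Treg and so also lay lower in both male libraries. They had 0 of 10 members called by edgeR (2 at an unadjusted p under 0.05, and 1 called by DESeq2) and none at 0 in all 4. Most of the sum was Ighm. H2-Ob, an MHC class II chaperone gene of B cells, fell by 2.06 on the log2 scale (adjusted p = 0.00353, lost without male replicate 1, with an adjusted p up to 0.0759). The part of B cells in the lower genes was not tested.

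Of 30 transcription factors of T cells 2 rose and 2 fell (13.3% called, against 1.61% of all genes, list median -0.12 on the log2 scale). Besides Gata3, the inhibitor of DNA binding Id2 rose by 1.11 (adjusted p = 0.0263). Tox, a factor of chronically stimulated T cells, was at -1.21 on the log2 scale (adjusted p = 0.00273) and the aryl hydrocarbon receptor gene Ahr one of -1.56 (adjusted p = 0.046). These calls were lost without female replicate 2, male replicate 1 or male replicate 2 for Id2 (adjusted p up to 0.302). Tox lost it without female replicate 1 or male replicate 2 (adjusted p up to 0.0666). Ahr lost it without female replicate 1, male replicate 1 or male replicate 2 (adjusted p up to 1). Prdm1, which encodes the regulator Blimp1, had 154 and 149.8 CPM in male VAT Treg, against 153 and 88.1 CPM in female VAT Treg (log2 fold change 0.33, SE 0.36, adjusted p = 1), and its libraries overlapped.

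Receptors for cytokines and chemokines changed in both directions. Cytokine receptor genes gave 5 of 30 higher and 2 lower (23.3% called, against 1.61% of all genes). Il10ra, the ligand-binding chain of the IL-10 receptor, had 863 and 622 CPM in male VAT Treg, against 102 and 93.0 CPM in female VAT Treg (log2 fold change 2.93, SE 0.23, adjusted p = 9.14e-07). Ifngr1, the interferon gamma receptor chain, rose by 1.14, while Il18r1, the IL-18 receptor chain, and Il21r, the IL-21 receptor, had log2 fold changes of -2.19 and -1.24 (adjusted p = 0.0129, 0.0441 and 0.0213). Of 18 chemokine receptor genes 3 rose and 2 fell (27.8% called, against 1.61% of all genes). Cxcr3, the receptor of interferon-induced chemokines, had 157 and 135 CPM in males, against 468 and 505 CPM in females (log2 fold change -1.74, SE 0.21, adjusted p = 0.000128). The 3 that rose were Cxcr6, Ccr2 and Ccr3, and Cxcr5 was the other that fell. Il10ra and Cxcr3 kept the call without each library, and it was lost without female replicate 1 or male replicate 1 for Ifngr1 (adjusted p up to 0.251). Il18r1 lost it without any one of the 4 libraries (adjusted p up to 0.454). Il21r lost it without female replicate 1, male replicate 1 or male replicate 2 (adjusted p up to 0.266).

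Among 26 cytokines and growth factors Il10 and Areg rose and 3 fell (19.2% called, against 1.61% of all genes). Tnfsf8, the ligand of CD30, had 6.83 and 11.4 CPM in male VAT Treg, against 82.6 and 46.2 CPM in female VAT Treg (log2 fold change -2.82, SE 0.35, adjusted p = 0.000168). Penk, the enkephalin precursor known as a product of tissue Treg, had 52.3 and 115 CPM in males, against 357 and 194 CPM in females (log2 fold change -1.72, SE 0.39, adjusted p = 0.031). Ltb, the lymphotoxin beta gene, fell by 0.88 on the log2 scale (adjusted p = 0.015). Calls were lost without female replicate 1 or male replicate 1 for Penk (adjusted p up to 0.575). Ltb lost it without female replicate 1, female replicate 2 or male replicate 1 (adjusted p up to 0.396). Of 20 chemokine genes edgeR and DESeq2 called 0, with 2 at an unadjusted p under 0.05.

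Genes induced within minutes to hours of stimulation were higher in males. Of 25 immediate early genes 11 rose and none fell (44.0% called, against 1.61% of all genes), with a list median of 1.47. Nr4a1, an orphan nuclear receptor gene induced by T cell receptor signals, had 6360.5 and 2103 CPM in male VAT Treg, against 578 and 409 CPM in female VAT Treg (log2 fold change 3.10, SE 0.45, adjusted p = 0.000638). Fosb, a subunit of the transcription factor AP-1, had 3490.2 and 1974 CPM in males, against 179 and 279.7 CPM in females (log2 fold change 3.58, SE 0.62, adjusted p = 0.00388). Junb, another AP-1 subunit, had 7559 and 5776 CPM in males, against 2895 and 2196 CPM in females (log2 fold change 1.39, SE 0.21, adjusted p = 0.00102). Male replicate 1 was the highest of the 4 libraries for all 3 genes, and male replicate 2 was above both female libraries. Btg2 rose by 1.77 and Jund by 1.47 (adjusted p = 0.00377 and 0.0101), and the other called members were Atf3, Ier2, Zfp36, Klf6, Ppp1r15a and Gadd45b. Over the list the CPM added up to 40231 and 27035 CPM in male VAT Treg, against 10633 and 12006 CPM in female VAT Treg. In RFP- CD4 T cells of VAT the same sums were 12040.4 and 13705 CPM in the male libraries and 7917 and 8641 CPM in the female ones, and in spleen Treg 3723 and 3852 CPM in the male libraries and 4035 and 4365 CPM in the female ones. These genes are also known to rise while tissue is dissociated, and the part of handling was not tested. Without female replicate 1, and likewise without male replicate 1, 4 members of the list were called, without female replicate 2 7 members and without male replicate 2 11. The call was lost without female replicate 1 for Fosb (adjusted p up to 0.127). Btg2 lost it without female replicate 2 or male replicate 1 (adjusted p up to 0.1). Jund, Atf3, Ppp1r15a and Gadd45b lost it without female replicate 1, female replicate 2 or male replicate 1 (adjusted p up to 0.67). Ier2 and Zfp36 lost it without female replicate 1 or male replicate 1 (adjusted p up to 0.135). Klf6 lost it without female replicate 2 (adjusted p up to 0.071).

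Among feedback genes of signalling a few rose. Of 20 NF-kappaB feedback genes 4 rose and none fell (20.0% called, against 1.61% of all genes). Yet the list median was -0.29 on the log2 scale with 12 of 20 below 0, against 9044 of 17340 among all genes. Nfkbiz, an atypical inhibitor protein of NF-kappaB in the nucleus, had 2548 and 1310.3 CPM in male VAT Treg, against 323 and 158 CPM in female VAT Treg (log2 fold change 3.00, SE 0.38, adjusted p = 0.000168). Nfkbid, a second nuclear inhibitor family member, had 758 and 389 CPM in males, against 111 and 68.4 CPM in females (log2 fold change 2.68, SE 0.38, adjusted p = 0.000623). Nfkbia, the classical inhibitor in the cytoplasm, had 2379 and 1377 CPM in males, against 637 and 376 CPM in females (log2 fold change 1.89, SE 0.25, adjusted p = 0.000294). All 3 kept the call without each library. The ubiquitin-editing enzyme gene Tnfaip3 rose by 1.64 (adjusted p = 0.039). Of 20 MAP kinase and cytokine feedback genes, with a list median of 0.24, 3 rose (15.0% called, against 1.61% of all genes). Dusp5, a phosphatase of ERK, rose by 1.78, Pim1, a kinase induced by cytokines, by 1.42, and Cish, a suppressor of cytokine signalling, by 1.43 (adjusted p = 0.0485, 0.0327 and 0.00148). Cish kept the call without each library, which was lost without female replicate 2 or male replicate 1 for Tnfaip3 and Pim1 (adjusted p up to 0.499). Dusp5 lost it without female replicate 1, female replicate 2 or male replicate 1 (adjusted p up to 0.783).

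Of 25 genes of T cell receptor signalling 1 rose and 6 fell (28.0% called, against 1.61% of all genes). Cd69, an early activation marker that holds cells in tissue, had 1984 and 778 CPM in male VAT Treg, against 216 and 115 CPM in female VAT Treg (log2 fold change 3.06, SE 0.37, adjusted p = 0.00011), and kept the call without each library. Most of the 6 that fell act near the receptor. Trat1, an adaptor bound to the receptor, had 10.9 and 7.05 CPM in males, against 37.9 and 29.4 CPM in females (log2 fold change -1.91, SE 0.42, adjusted p = 0.0233). Themis, which tunes receptor signals, had 14.7 and 15.3 CPM in males, against 57.0 and 36.8 CPM in females (log2 fold change -1.64, SE 0.32, adjusted p = 0.0105). The kinase gene Prkcq fell by 1.25, the phosphatase gene Ptpn22 by 0.92 and the kinase gene Zap70 by 0.86 on the log2 scale (adjusted p = 0.014, 0.0209 and 0.0327), and Nfatc1, a transcription factor gene of the calcium pathway, was the sixth. None of the 6 was called without female replicate 1, without male replicate 1 or without male replicate 2, and 5 were called without female replicate 2. The calls named here were lost without female replicate 1, male replicate 1 or male replicate 2 for Trat1, Themis, Ptpn22, Zap70 and Nfatc1 (adjusted p up to 0.737). Prkcq lost it without any one of the 4 libraries (adjusted p up to 0.156).

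**Figure D3:**
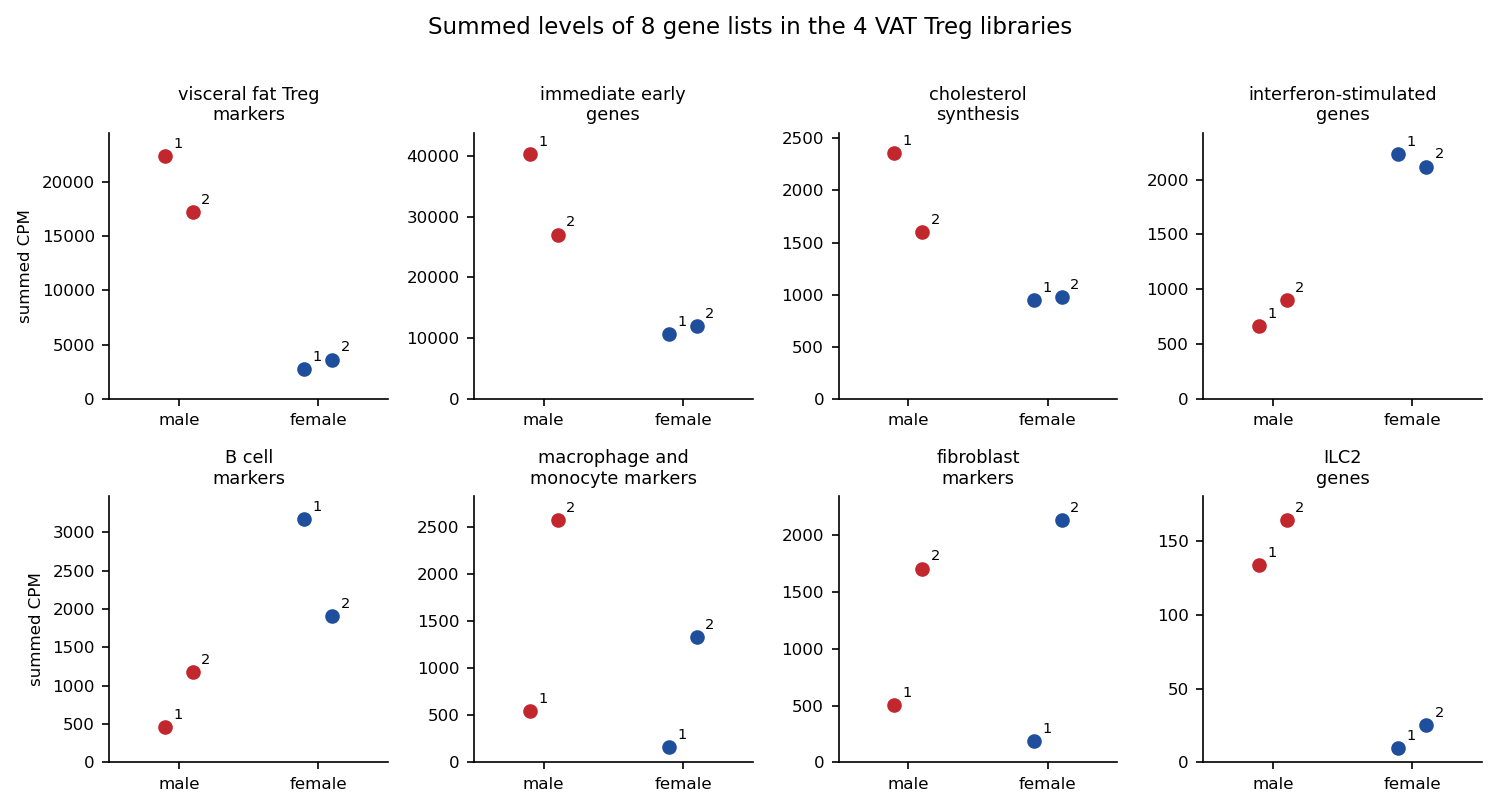
Summed CPM (y axis, from 0, no scaling between libraries) of 8 gene lists in the VAT Treg libraries, male left of female, with the replicate number beside each point. Visceral fat Treg markers, immediate early genes, cholesterol synthesis and ILC2 genes do not overlap between the sexes and are higher in males, interferon-stimulated genes and B cell markers do not overlap and are lower in males, and macrophage and fibroblast markers overlap.

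The lipid genes called were higher in males. Hilpda, which coats lipid droplets and blocks their breakdown, had 692 and 233 CPM in male VAT Treg, against 40.9 and 25.0 CPM in female VAT Treg (log2 fold change 3.81, SE 0.52, adjusted p = 0.000348), and kept the call without each library. Dgat1, which makes triglycerides, had 258 and 154 CPM in males, against 78.2 and 54.8 CPM in females (log2 fold change 1.63, SE 0.32, adjusted p = 0.0105). These were the 2 called of 28 genes of lipid uptake, storage and oxidation (7.14%, against 1.61% of all genes). Cholesterol synthesis and uptake gave 5 of 22 higher and none lower (22.7% called, against 1.61% of all genes), with a list median of 1.02. Of the 22, 21 were above 0, against 7467 of 17340 among all genes. In 19 the male libraries lay above the female ones, against 2961 of 17340 among all genes. Sqle, squalene epoxidase, rose by 2.42, Hmgcs1, an early enzyme of the mevalonate pathway, by 1.79, and Insig1, the sterol-sensing brake on the pathway, by 1.48 (adjusted p = 0.0469, 0.0171 and 0.02). No member was called without female replicate 1 or without male replicate 1, while 3 were without female replicate 2 and 6 without male replicate 2. Single calls were lost without female replicate 1, female replicate 2 or male replicate 1 for Dgat1, Sqle and Insig1 (adjusted p up to 0.538). Hmgcs1 lost it without female replicate 1 or male replicate 1 (adjusted p up to 0.463). Of 26 genes of glycolysis and the hypoxia response 2 rose (7.69% called, against 1.61% of all genes). Ero1l, an oxidase of the endoplasmic reticulum, had 233 and 151 CPM in males, against 50.6 and 39.7 CPM in females (log2 fold change 2.09, SE 0.32, adjusted p = 0.00127). The oxygen-sensing hydroxylase gene Egln3 rose by 2.33 (adjusted p = 0.0134, lost without female replicate 1 or male replicate 1, with an adjusted p up to 0.289).

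Among 23 leukotriene and prostaglandin genes 2 rose and 1 fell (13.0% called, against 1.61% of all genes). Ltb4r1, the high-affinity receptor of leukotriene B4, had 1168 and 828 CPM in male VAT Treg, against 32.1 and 59.8 CPM in female VAT Treg (log2 fold change 4.44, SE 0.96, adjusted p = 0.022). Lpcat2, which makes platelet-activating factor, had 129 and 114 CPM in males, against 3.17 and 8.62 CPM in females (log2 fold change 4.36, SE 0.98, adjusted p = 0.0292). Ptger2, a prostaglandin E2 receptor, had 10.3 and 15.0 CPM in males, against 78.5 and 73.2 CPM in females (log2 fold change -2.58, SE 0.45, adjusted p = 0.00377). For none of these 3 genes did the libraries of the sexes overlap. The calls were lost without female replicate 1, female replicate 2 or male replicate 1 for Ltb4r1 (adjusted p up to 0.393). Lpcat2 lost it without any one of the 4 libraries (adjusted p up to 0.465). Ptger2 lost it without male replicate 1 (adjusted p up to 0.0987).

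Interferon-stimulated genes were lower in males. Of 25 such genes 7 fell and none rose (28.0% called, against 1.61% of all genes). The list median was -1.19, with 22 below 0 and 2 above, against 9044 below and 7467 above of 17340 among all genes. Summed CPM came to 663 and 897 CPM in male VAT Treg, against 2233 and 2117 CPM in female VAT Treg. Isg15, a ubiquitin-like protein, had 6.59 and 9.57 CPM in males, against 47.6 and 25.3 CPM in females (log2 fold change -2.17, SE 0.42, adjusted p = 0.00914). Ifih1, the double-stranded RNA sensor MDA5, had 11.1 and 14.4 CPM in males, against 52.2 and 43.4 CPM in females (log2 fold change -1.91, SE 0.36, adjusted p = 0.00829). The male libraries lay below the female ones with no overlap for both genes. Oas1a, an enzyme that activates RNA decay, had 15.9 and 29.9 CPM in males, against 70.0 and 59.2 CPM in females (log2 fold change -1.50, SE 0.34, adjusted p = 0.0292). The sensor gene Zbp1 (-1.16, adjusted p = 0.0191), the protease gene Usp18 (-2.56, adjusted p = 0.033) and Rtp4 (-1.60, adjusted p = 0.0297) also fell. Of the 7 genes, 1 was called without female replicate 1, 2 without male replicate 1, 3 without female replicate 2 and 4 without male replicate 2, and by DESeq2 13 of the 25 were called. Single calls were lost without female replicate 1 or male replicate 1 for Isg15 (adjusted p up to 0.212). Ifih1 lost it without female replicate 1, male replicate 1 or male replicate 2 (adjusted p up to 0.209). Oas1a and Rtp4 lost it without female replicate 1, female replicate 2 or male replicate 1 (adjusted p up to 0.527). Zbp1 lost it without any one of the 4 libraries (adjusted p up to 0.367). Usp18 lost it without female replicate 1, female replicate 2 or male replicate 2 (adjusted p up to 0.344).

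The promoters of the called interferon-stimulated genes are shown because these genes moved together and share a known control element. The core of the interferon-stimulated response element, searched on both strands as GAAA, any 2 bases and GAAA, was found in RefSeq promoters (GRCm38.p6, 250 bases before to 50 after the gene start) of 9 of 16 list members that were tested and have one in the table (56.2%), against 489 of 12564 tested genes (3.89%). All 3 called members with a promoter in the table, Isg15, Ifih1 and Oas1a, held it. Of called genes with a promoter it was found in 4 of 99 that rose and 15 of 119 that fell. Capitals mark the matches, which overlap in Isg15 and Oas1a; each sequence is on the minus strand, 5′ to 3′. A match is a description of the letters in this window and not evidence of a bound site.
Isg15, chr4:156200769-156201068: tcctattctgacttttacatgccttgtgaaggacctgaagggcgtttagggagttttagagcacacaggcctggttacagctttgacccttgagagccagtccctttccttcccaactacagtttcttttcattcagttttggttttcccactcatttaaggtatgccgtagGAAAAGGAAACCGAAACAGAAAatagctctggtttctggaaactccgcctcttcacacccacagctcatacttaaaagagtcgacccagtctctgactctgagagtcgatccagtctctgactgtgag
Ifih1, chr2:62646206-62646505: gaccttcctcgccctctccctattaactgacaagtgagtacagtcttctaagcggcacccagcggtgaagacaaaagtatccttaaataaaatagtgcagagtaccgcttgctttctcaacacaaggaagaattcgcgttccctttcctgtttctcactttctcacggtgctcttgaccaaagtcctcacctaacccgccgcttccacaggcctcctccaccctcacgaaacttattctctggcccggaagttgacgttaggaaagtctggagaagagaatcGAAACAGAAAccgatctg
Oas1a, chr5:120907476-120907775: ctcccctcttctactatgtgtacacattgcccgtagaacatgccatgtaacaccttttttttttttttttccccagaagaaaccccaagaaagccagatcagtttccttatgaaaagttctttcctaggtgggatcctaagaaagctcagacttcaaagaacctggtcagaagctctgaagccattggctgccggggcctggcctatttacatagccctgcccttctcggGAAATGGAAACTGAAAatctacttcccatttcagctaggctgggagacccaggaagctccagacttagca
The cyclic AMP response element TGACGTCA, the same on both strands, was found in the promoters of 3 of 21 immediate early genes with one in the table (14.3%), against 402 of 12564 tested genes (3.2%), and in 2 of the 10 called members, Btg2 and Ppp1r15a. The heat shock element, searched on both strands as GAA, any 2 bases, TTC, any 2 bases and GAA, was found in 4 of 14 heat shock and J-domain chaperone genes (28.6%), against 76 of 12564 (0.605%), and of the 20 chaperone genes tested edgeR and DESeq2 called 0, with 1 at an unadjusted p under 0.05.

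Smaller groups changed in single genes. Of 30 cell cycle genes 2 fell (6.67% called, against 1.61% of all genes), the cyclin gene Ccna2 (-1.57, adjusted p = 0.0473) and the replication helicase gene Mcm6 (-1.02, adjusted p = 0.0399). The list median was -0.91 with 25 of 30 below 0, against 9044 of 17340 among all genes. Its summed CPM overlapped between the sexes, at 2440 and 2099 CPM in male VAT Treg, against 3284 and 2304 CPM in female VAT Treg. The death receptor gene Fas (-1.83, adjusted p = 0.0371) fell, with 2 of 23 apoptosis regulators called (8.7%, against 1.61% of all genes), both lower in males. P2rx7, the ATP-gated channel known to kill Treg during isolation, had 26.0 and 49.9 CPM in male VAT Treg, against 172 and 144 CPM in female VAT Treg (log2 fold change -2.06, SE 0.39, adjusted p = 0.00811). It and Gpr18 (-2.25, adjusted p = 0.0485), a lipid-sensing receptor gene, were the 2 called of 25 nucleotide, sphingolipid and adrenergic receptors (8.0%, against 1.61% of all genes). Calls were lost without female replicate 1, male replicate 1 or male replicate 2 for Ccna2 and Mcm6 (adjusted p up to 0.972). Fas and Gpr18 lost it without any one of the 4 libraries (adjusted p up to 0.484). P2rx7 lost it without female replicate 1 or male replicate 1 (adjusted p up to 0.178).

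Adhesion and matrix genes held both directions. Cd44, the hyaluronan receptor of activated T cells, had 1087 and 800.3 CPM in male VAT Treg, against 312 and 299.9 CPM in female VAT Treg (log2 fold change 1.62, SE 0.23, adjusted p = 0.000545), and kept the call without each library. Of 25 adhesion genes Cd44 and the integrin gene Itgb3 (1.98, adjusted p = 0.0427) rose, and Itgae and the integrin gene Itgb1 (-1.10, adjusted p = 0.0131) fell. That was 16.0% of the list called, against 1.61% of all genes. Of 25 matrix remodelling and lysosomal genes 3 rose (12.0% called, against 1.61% of all genes). Mmp9, a gelatinase, rose by 2.71, Adam8, a membrane protease, by 3.55, and Anxa1, a phospholipid-binding resolver of inflammation, by 3.56 (adjusted p = 0.0169, 0.0485 and 0.00459). Macrophages express these 3 genes too. Of 12 macrophage and monocyte markers 11 were above 0 (list median 1.10 on the log2 scale), against 7467 of 17340 among all genes. Libraries of the sexes overlapped in all 12, while 37.2% of all genes did not overlap, and 0 were at an unadjusted p under 0.05. The sums of these markers overlapped between the sexes as given above, and the part of macrophages in Mmp9, Adam8 and Anxa1 was not tested. Ctsw, a protease gene of cytotoxic lymphocytes, fell by 1.84 and Atp1b1, a sodium pump subunit gene, by 3.06 on the log2 scale (adjusted p = 0.00276 and 0.00459). The call was lost without female replicate 1, female replicate 2 or male replicate 1 for Itgb3 (adjusted p up to 0.617). Itgb1 lost it without female replicate 1 or male replicate 2 (adjusted p up to 0.171). Mmp9 lost it without female replicate 1 or male replicate 1 (adjusted p up to 0.242). Adam8 lost it without any one of the 4 libraries (adjusted p up to 0.627). Anxa1 lost it without female replicate 1 (adjusted p up to 0.124). Ctsw and Atp1b1 lost it without male replicate 1 (adjusted p up to 0.128).

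Of 23 receptors of sex steroids and metabolic hormones 1 was called (4.35%, against 1.61% of all genes). Igf1r, the receptor of insulin-like growth factor 1, had 28.1 and 28.3 CPM in male VAT Treg, against 119 and 90.4 CPM in female VAT Treg (log2 fold change -1.89, SE 0.40, adjusted p = 0.02, lost without female replicate 1, male replicate 1 or male replicate 2, with an adjusted p up to 0.234). Esr1, an estrogen receptor, had 2.41 and 1.45 CPM in males, against 4.74 and 7.64 CPM in females, and was not called (log2 fold change -1.68, SE 1.65, adjusted p = 1). Of 16 clock genes the transcription factor gene Hlf alone was called (3.12, adjusted p = 0.045, lost without any one of the 4 libraries, with an adjusted p up to 0.519). That was 6.25% of the list, against 1.61% of all genes. EdgeR called 0 of 22 genes of endoplasmic reticulum stress (2 at an unadjusted p under 0.05), 0 of 19 of metal handling (1), 0 of 19 of the TGF-beta pathway (2) and 0 of 20 of DNA methylation and chromatin (3). DESeq2 called 0 of the metal handling genes and 1 in each of the other lists.

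**Figure D4:**
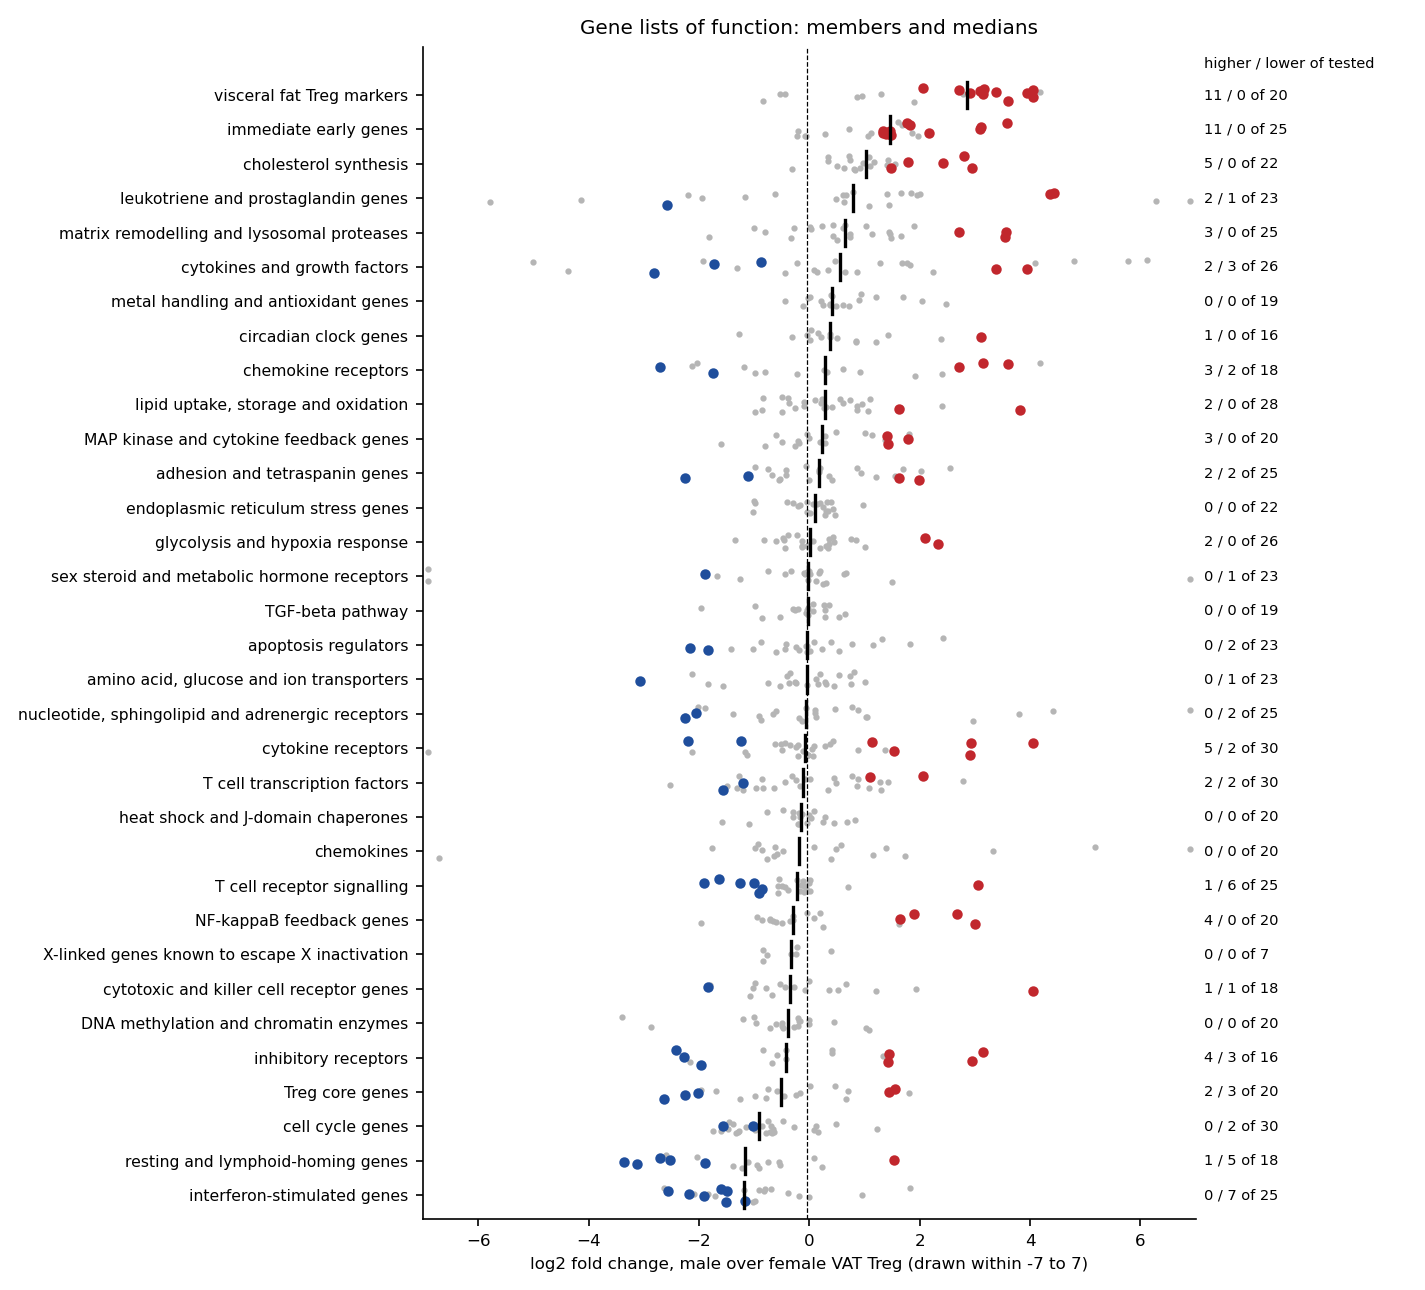
Log2 fold change of male over female VAT Treg (x axis, values past 7 in size drawn at the edge) for members of 33 lists of function (rows), 1 point per gene tested; red and blue points were called higher and lower, grey ones were not called. Black bars are list medians, the dashed line is the median over all genes (-0.04), and counts of called members stand at the right; visceral fat Treg markers are at the top and interferon-stimulated genes at the bottom.

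Among the largest changes not in the groups above, Tbc1d4, a Rab GTPase-activating protein that controls traffic of glucose transporters, had 32.0 and 27.5 CPM in male VAT Treg, against 286 and 213 CPM in female VAT Treg (log2 fold change -3.07, SE 0.22, adjusted p = 2.07e-07). Scin, an actin-severing protein, had 4.42 and 5.3 CPM in males, against 105 and 40.7 CPM in females (log2 fold change -3.90, SE 0.60, adjusted p = 0.00112). Chchd10, a mitochondrial protein, had 2.82 and 3.78 CPM in males, against 30.1 and 28.6 CPM in females (log2 fold change -3.15, SE 0.44, adjusted p = 0.000447). These and Apol7e, of the apolipoprotein L family (log2 fold change -3.36, SE 0.45, adjusted p = 0.000294), kept the call without each library. Ecel1, an endopeptidase gene of the endothelin-converting enzyme family, had 0.696 and 1.3 CPM in males, against 33.4 and 25.8 CPM in females (log2 fold change -4.88, SE 1.14, adjusted p = 0.0343), and St8sia1, a ganglioside synthase, fell by 3.42 on the log2 scale (adjusted p = 0.022). Higher in males were Irs2, an adaptor of the insulin receptor, with 638 and 188 CPM in males, against 39.3 and 21.0 CPM in females (log2 fold change 3.78, SE 0.80, adjusted p = 0.019). Lmna, the nuclear lamin A gene, had 749 and 373 CPM in males, against 20.9 and 78.0 CPM in females (log2 fold change 3.50, SE 0.59, adjusted p = 0.00307). The call was lost without any one of the 4 libraries for Ecel1 and St8sia1 (adjusted p up to 0.423). Irs2 lost it without female replicate 1, female replicate 2 or male replicate 1 (adjusted p up to 0.336). Lmna lost it without female replicate 1 (adjusted p up to 0.0666).

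Whether these differences were those of Treg of fat was asked against RFP- CD4 T cells of the same fat and against spleen Treg, by testing the difference of the sex differences. Against VAT CD4 T cells 55 of 17340 genes were called (0.317%), 24 with a more positive (0.138%) and 31 with a more negative (0.179%) male over female value in VAT Treg. Against spleen Treg 92 were called (0.531%), 37 more positive (0.213%) and 55 more negative (0.317%). Of the 280 genes called in VAT Treg, 37 differed from VAT CD4 T cells, 78 from spleen Treg and 27 from both. The 280 were chosen by the sex difference in those same VAT Treg libraries, which favours such calls among them. Il1rl1 stood at -0.14 on the log2 scale, male over female, in VAT CD4 T cells and -0.42 in spleen Treg, and its value in VAT Treg exceeded these (4.19, SE 0.36, adjusted p = 1.81e-05 against VAT CD4; 4.47, SE 0.36, adjusted p = 6.22e-06 against spleen Treg). For Tcf7 they were -0.59 in VAT CD4 T cells and 0.04 in spleen Treg, with differences of -2.54, SE 0.42, adjusted p = 0.0103 against VAT CD4 and -3.17, SE 0.42, adjusted p = 0.000996 against spleen Treg. Cxcr3 had a positive log2 fold change in VAT CD4 T cells (0.59) and a negative one in VAT Treg (difference -2.33, SE 0.30, adjusted p = 0.0015). Nfkbiz (0.80 in VAT CD4) was not called in the difference from VAT CD4 T cells.

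Sex differences called within the other cells were 256 in VAT CD4 T cells (1.48%), 119 higher (0.686%) and 137 lower (0.79%) in males, and 13 in spleen Treg (0.075%), 12 higher (0.0692%) and 1 lower (0.00577%). VAT Treg and VAT CD4 T cells shared 27 calls, 9.64% of those of VAT Treg and 10.5% of those of VAT CD4 T cells, all in the same direction. The 5 genes called in spleen Treg and in VAT Treg were Xist and 4 genes of the Y chromosome, which are called in VAT CD4 T cells too. The counts of the differences rest on single libraries. Against VAT CD4 T cells 15 genes were called without VAT CD4 female replicate 2, 142 without VAT CD4 male replicate 1, 211 without VAT CD4 male replicate 2, 22 without VAT Treg male replicate 1 and 25 without VAT Treg female replicate 1. Against spleen Treg the highest count, 251, came on leaving out female replicate 2 of spleen and the lowest, 48, male replicate 1 of spleen; 52 genes were called without female replicate 1 of VAT Treg and 59 without male replicate 1 of it.

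**Figure D5:**
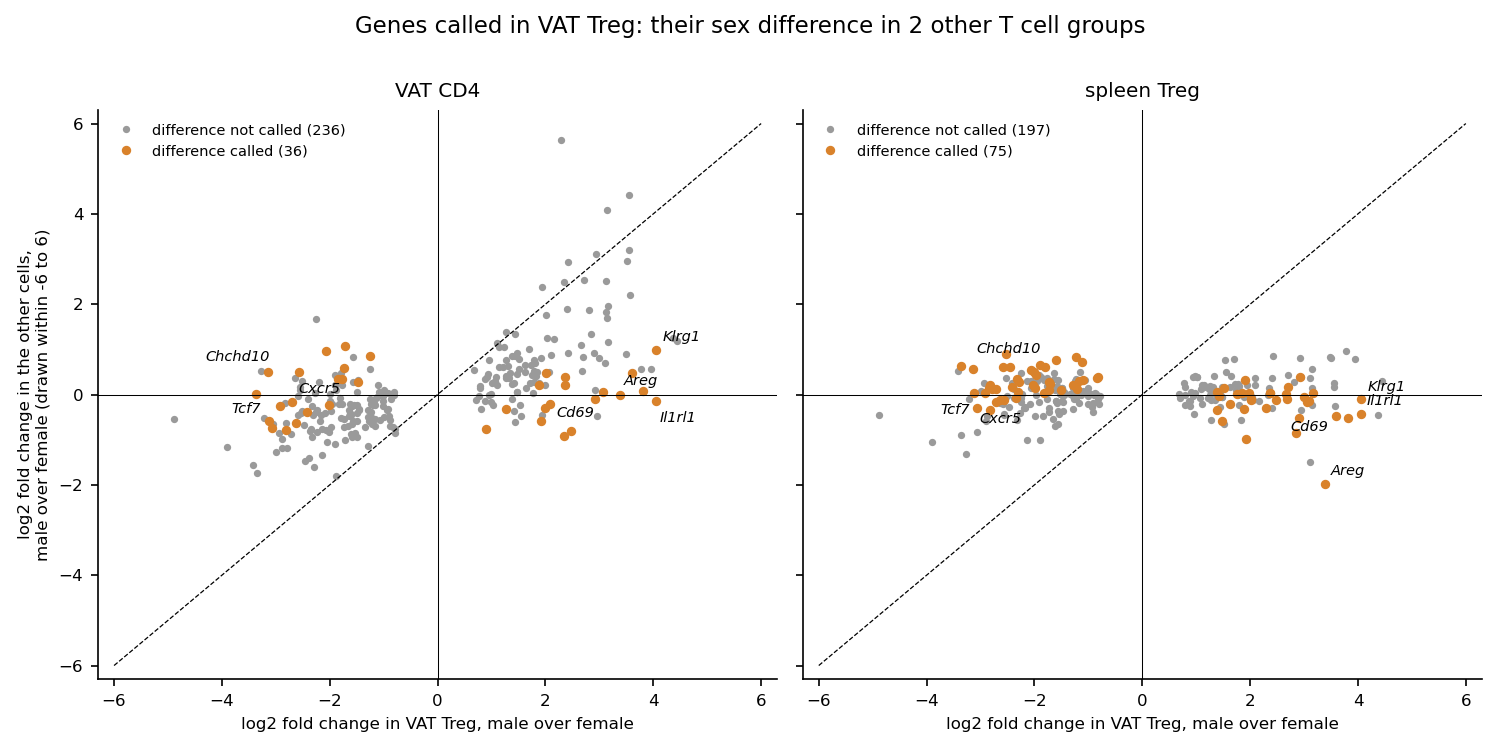
Male over female log2 fold change in VAT CD4 T cells (left panel, y axis) and in spleen Treg (right panel, y axis) against that in VAT Treg (x axis) for 272 genes called in VAT Treg with a value under 6 in size; the dashed line marks equal values. Orange points are the 36 and 75 genes whose difference from VAT CD4 T cells or spleen Treg was called; in spleen Treg most points lie near 0 on the y axis.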

How the data were processed

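RNA-seq of pooled sorted mouse T cells was analysed from a table of read counts per gene that the authors deposited (27179 genes by Entrez identifier, TruSeq libraries per the labels' protocols). The submitters' processing notes name Subread 1.6.2, limma, featureCounts and both GRCm38 and mm10 as builds. The sources used here do not say how reads were aligned, which annotation was used and whether counting used strand. The table has 6 columns that matched no sample used here and were left out. Log2 FPKM values of each library were deposited too and served only to check columns: all 19 T cell files correlated best with their own count column. Names came from the deposited files or from a RefSeq table (GRCm38.p6); 1883 unnamed identifiers held 1.46% to 1.78% of reads in VAT Treg.

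Counts of all 19 sorted T cell libraries were fitted with group as the only term by edgeR 4.0.16 in R 4.3.3 (TMM, filterByExpr, glmQLFit, glmQLFTest), with Benjamini-Hochberg adjustment over 17340 genes and an adjusted p under 0.05 as the call. A positive log2 fold change means higher in males. Dividing a log2 fold change by the square root of its F gave the SE. Intervals of counting are not given, as the spread between pools sets the error. Replicate pairs differed beyond sampling noise, so none was merged. The fit was also run on simulated counts with known changes, drawn with the spread that the fit itself had estimated. Such a run cannot show whether that spread suits VAT Treg.

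Members and the 47 lists (34 of function, 13 of other cells; 849 genes) were chosen with earlier results of these data known. Genes were named by a rule: the 12 largest called changes in each direction (libraries not overlapping, at least 5 CPM in the higher group, no Xist, Y-linked gene or gene model), up to 5 called members per list by adjusted p, the 2 most abundant members per list, and key genes. Part of these is given and some are not reported here; other called members were named to complete a list's count. Lists are described by counts and medians, with no set test. Alternatives were DESeq2 1.42.0, edgeR with the size factors of DESeq2, no low-count filter, the compared groups alone, a replicate block, and each library left out; added after seeing the data were leaving out the 3 reporter libraries of fat with the highest sums of markers of other cells, and a fit of Treg libraries only.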

Additional observations from a re-analysis of the deposited data

Results flagged for a closer look

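Genes named here whose male over female log2 fold change in VAT Treg differed from that in another T cell group, by the edgeR test of the difference at an adjusted p under 0.05, are given with the size of that difference on the log2 scale. Against RFP- CD4 T cells of VAT the value in VAT Treg was more positive for Il1rl1 (4.19), Hilpda (3.73), Areg (3.40), Ramp1 (3.27), Egln3 (3.26), Cxcr6 (3.12), Klrg1 (3.06), Il10ra (3.02), Cd69 (3.00), Ero1l (2.29), S100a4 (1.97), Nfkbia (1.68) and S100a6 (1.55). It was more negative for Chchd10 (-3.66), Apol7e (-3.37), P2rx7 (-3.03), Penk (-2.80), Cxcr5 (-2.55), Tcf7 (-2.54), Tbc1d4 (-2.33), Cxcr3 (-2.33), Ctsw (-2.18), Sh2d1a (-2.04), Btla (-2.03), Nt5e (-1.996) and Izumo1r (-1.79).

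Against spleen Treg the value in VAT Treg was more positive for Areg (5.36), Il1rl1 (4.47), Hilpda (4.34), Klrg1 (4.15), Cxcr6 (4.07), Nr4a1 (3.25), Cd69 (3.22), Fgl2 (3.14), Nfkbiz (3.05), Nfkbid (2.77), Ramp1 (2.59), Ccr2 (2.54), Il10ra (2.54), S100a4 (2.33), Nfkbia (2.204), S100a6 (2.13), Vim (2.11), Insig1 (2.06), Cd44 (1.84), Junb (1.73), Lgals1 (1.47) and Crip1 (1.37). It was more negative for Chchd10 (-3.70), Tcf7 (-3.17), Sh2d1a (-3.03), Slamf6 (-2.98), Cxcr5 (-2.82), Tbc1d4 (-2.77), P2rx7 (-2.60), Btla (-2.59), Igf1r (-2.55), Nt5e (-2.52), Tnfsf8 (-2.49), Cd96 (-2.35), Izumo1r (-2.23), Cxcr3 (-1.84) and Itgb1 (-1.42). All 4 groups of each difference hold 2 libraries, so how the genes behave in single libraries rests on few values. Spleen Treg carry no age on their labels and came from 3 mice a library, and the part of age in these differences was not tested. Sex differences in VAT CD4 T cells and spleen Treg come from other libraries than those of VAT Treg, with no control in common. Groups of 2 are too small to look for single outlying libraries.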

How the results depend on the processing

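Of 120 named genes, all kept their direction and their call with no filter on low counts, and all with DESeq2 but 1, which it added. With DESeq2 size factors 6 calls were lost and with the replicate number as a block 4. Leaving out the 3 reporter libraries of fat highest in markers of other cells ended 15 calls and added 2, and a fit of Treg libraries alone added 2. Only the groups compared gave no call, in a fit in which 4 libraries set the spread. Leaving out a VAT Treg library, after which the lone sample of that sex is assumed to vary like the other groups, ended 31 calls (male replicate 2), 37 (female replicate 2), 63 (female replicate 1) or 66 (male replicate 1). The direction turned for 1 gene, Prdm1, which was not called (from -0.01 to 0.79 over the leave-outs).

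The count of 280 genes became 547 with DESeq2, 431 with Treg libraries alone and 0 with only the groups compared (1677 at an unadjusted p under 0.05), and 94 to 207 on leaving out a library. Against VAT CD4 T cells the 55 became 391 with DESeq2, 120 with no filter, 136 without the 3 libraries, 0 with only the groups compared (1091 at an unadjusted p under 0.05), and 15 to 211 on leaving out a library. Against spleen Treg the 92 became 426 with DESeq2, 166 with no filter, 191 without the 3 libraries, 181 with Treg libraries alone, 40 with only the groups compared, and 48 to 251 on leaving out a library. The cause of these shifts was not tested. With the replicate block the counts were 283, 69 and 86. The labels do not say that a number pairs pools, and deviations of same-numbered VAT Treg libraries correlated at 0.357, of VAT CD4 T cells at -0.0854 and of spleen Treg at -0.00381. The median over all genes of the difference against spleen Treg was -0.15, and 0 with DESeq2.

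Limits are 2 pools a sex, one age and one line, with sex and depot not separable, and bulk RNA, in which cell shares and levels per cell mix. Genes changed by less than 0.68 on the log2 scale were not called, and a gene not called is not shown to be alike in the sexes. How reads of near-identical, overlapping or antisense genes were counted is not given here.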

Other observations

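Called genes outside the lists were looked through after their values were seen. S100a4, a calcium-binding protein of migrating cells, had 2029 and 1884 CPM in male VAT Treg, against 322 and 440.5 CPM in female VAT Treg (log2 fold change 2.36, SE 0.23, adjusted p = 1.09e-05). Its relative S100a6 rose by 2.02, the intermediate filament gene Vim by 2.01 and the LIM protein gene Crip1 by 1.51 on the log2 scale (adjusted p = 5.85e-05, 0.000168 and 0.000461). Slamf6, a receptor between lymphocytes, had 24.5 and 6.94 CPM in males, against 147 and 77.6 CPM in females (log2 fold change -2.84, SE 0.43, adjusted p = 0.000969), and Sh2d1a, the adaptor SAP that binds it, had 15.4 and 24.4 CPM in males, against 162 and 119 CPM in females (log2 fold change -2.82, SE 0.29, adjusted p = 1.92e-05). Cd96, a receptor for nectin-like ligands, fell by 2.30 on the log2 scale (adjusted p = 0.000168). All of these kept the call on leaving out each VAT Treg library in turn.

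Ramp1, a subunit of the receptor for the peptide CGRP, had 336 and 381 CPM in male VAT Treg, against 53.0 and 76.2 CPM in female VAT Treg (log2 fold change 2.47, SE 0.33, adjusted p = 0.000269), and kept the call likewise. Calca, which encodes that peptide, was not called (log2 fold change 4.85, SE 1.57, adjusted p = 0.266). Of 22 T cell receptor beta variable genes tested 3 were called, against 280 of 17340 among all genes (1.61%). They were Trbv12-2, Trbv13-2 and Trbv13-3, all lower in males, with Trbv13-2 at 20.2 and 22.3 CPM in males, against 54.4 and 53.3 CPM in females (log2 fold change -1.34, SE 0.25, adjusted p = 0.00611, lost without female replicate 1 or male replicate 1, with an adjusted p up to 0.135). These genes share reads with near-identical copies, so single values are uncertain. With TMM scaling, unlike the sums of lists above, the beta genes added up to 549 and 586 CPM in male VAT Treg, against 746 and 618 CPM in female VAT Treg. Of 99 alpha variable genes tested edgeR called 0, with 66 below 0, 31 above and a median of -0.99 on the log2 scale.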
